A study of Mus musculus with 2 samples.

Results

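Mature luminal (ML) cells of the adult mouse mammary gland that held transcripts of Ly6a were compared with ML cells that held none. The cells were chosen by measured values in the library of total epithelial cells: summed counts of Prlr, Stc2 and Gpx3 of 10 or more, of Krt5, Krt14 and Acta2 under 8, and of Trf, Csn3 and Elf5 under 8. These sums keep cells with transcripts of hormone-sensing luminal cells and leave out cells with basal or luminal progenitor (LP) transcripts. The rule took 976 of the 3302 cells of the library, or 29.6%, of 8073 cells in the series. A Ly6a count of 1 or more placed 488 cells on the Ly6a-positive side, and a count of 0 placed 488 on the Ly6a-negative side. The 10 genes used to choose the cells are given only as a description.

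The library held Lin-CD24+ cells of untreated adult FVB/NJ mice, an inbred strain, captured as 1 pool on the 10X Chromium platform with 3′ counting of single molecules. Antibodies to TER119, CD45 and CD31 defined the Lin- gate, which removes red cells, leukocytes and endothelium. The series took cells from 8 mice in all, and its other library held sorted basal cells, of which 4 met the same rule and were not used. With 1 library, whose cells are not tied to a mouse, there was no replicate check and no test of any difference. Every interval below is an exact 95% interval that covers counting error only, and cells of the pool are not replicates of a condition.

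Ly6a encodes Sca-1, a surface protein of the Ly6 family that is held in the membrane by a glycosylphosphatidylinositol (GPI) lipid anchor. Antibodies to Sca-1 are used to sort haematopoietic stem cells, and in the mammary gland to separate luminal cells that carry hormone receptors from other luminal cells. ML cells sense oestrogen, progesterone and prolactin and pass the signal to their neighbours through secreted factors such as amphiregulin (Areg).

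The Ly6 genes lie side by side on mouse chromosome 15, and some are near copies of each other, so that short reads from 1 may match another. The coding starts of Ly6a and of the 3 family members that the results turn on are printed to show how alike the genes are in that stretch. Each is the first 120 coding bases of a GENCODE vM21 transcript on GRCm38, 5′ to 3′, and capitals mark the longest exact run shared with Ly6a within the printed stretch (for Ly6a itself, the run shared with Ly6c1).
Ly6a: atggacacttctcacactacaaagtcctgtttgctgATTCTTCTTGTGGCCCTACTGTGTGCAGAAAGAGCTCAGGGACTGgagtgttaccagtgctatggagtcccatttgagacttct
Ly6c1: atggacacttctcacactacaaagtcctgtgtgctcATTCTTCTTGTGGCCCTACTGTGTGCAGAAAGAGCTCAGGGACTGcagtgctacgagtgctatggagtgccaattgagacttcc
Ly6d: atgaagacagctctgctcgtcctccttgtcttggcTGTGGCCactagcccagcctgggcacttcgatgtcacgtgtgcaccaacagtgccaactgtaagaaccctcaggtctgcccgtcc
Ly6e: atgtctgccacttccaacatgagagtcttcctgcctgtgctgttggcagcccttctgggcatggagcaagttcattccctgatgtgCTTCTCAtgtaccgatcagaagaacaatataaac
Ly6c1 shared a run of 45 bases with Ly6a in this stretch and of 62 bases over the whole transcripts. Ly6d and Ly6e each shared at most 7 bases in the stretch, and 10 and 11 over the whole transcripts. Over the coding sequence, identity to Ly6a was 67% for Ly6c1, 53.8% for Ly6e and 50% for Ly6d. The library counted 3′ ends, which were not compared on their own. The counts of Ly6a and Ly6c1 are uncertain where reads fell in shared stretches, and whether any did was not tested.

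Ly6a transcripts were spread unevenly over the ML cells. The 976 cells held 2029 Ly6a counts, with 152 cells at 1 count, 70 at 2, 63 at 3 and a highest cell at 33. The mean was 2.08 counts per cell and the variance 13, a ratio of 6.25, where counts drawn at 1 rate would give a ratio near 1. At 1 common rate per count of depth, 17.2% of the cells would have had no Ly6a count, against 50% (46.8 to 53.2%) observed. The 43 cells with 10 or more counts held 31.0% of all Ly6a counts. With the keratin-poor cells described below left out, 38 cells had 10 or more counts. Among the positive cells the median was 3 counts.

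Detection moved with depth, so that a count of 0 does not show that a cell lacked the transcript. In 4 equal classes of total count, from shallow to deep, 38.5%, 47.5%, 55.3% and 58.6% of ML cells had Ly6a, while its level in CPM, counts per 1000000 counts, was 568, 646, 689 and 571. At the median depth of the Ly6a-negative cells, 3005.5 counts, a count of 0 allows up to 3 counts, or 998 CPM. That limit is the rule of 3 counts and is not one of the exact intervals. At the edge of the rule, 19 of 28 cells with a Prlr, Stc2 and Gpx3 sum of 10 had Ly6a, as did 11 of 18 cells with a sum of 9, just outside. The next values went lower, with 8 of 18 cells at a sum of 11 inside and 3 of 10 at a sum of 8 outside.

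Among the epithelial gates of the library, Ly6a was found most often in ML cells and in cells with both luminal sums high. With each cell thinned to 1500 counts and shallower cells left out, 333 of 897 ML cells, or 37.1% (34.0 to 40.4%), had a Ly6a count, with 79 cells left out. The share was 30.3% (23.1 to 38.2%) of 152 cells in which both the ML and the LP sum were high, with 3 left out. It was 4.6% (3.03 to 6.67%) of 565 LP cells, with 92 left out, and 0.126% of 796 basal cells, with 398 left out. Without thinning the shares were 50%, 54.2%, 6.70% and 0.251%, at median depths of 3196.5, 5406, 2603 and 1777 counts. The basal value at 1500 counts is 1 cell with 4 Ly6a counts. Free RNA in the droplets was not measured, and the intervals of the ML and LP shares lay above that of basal cells (0.00318 to 0.698%). Cells with fibroblast markers and few luminal keratins, of which the library held 42, had Ly6a in 20 of 23, or 87.0% (66.4 to 97.2%), at 1500 counts with 19 left out, above each epithelial gate. Without thinning 22 of the 42 had it, at a median depth of 1899 counts. Of these 42 cells, 11 also met the ML rule.

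**Figure D1:**
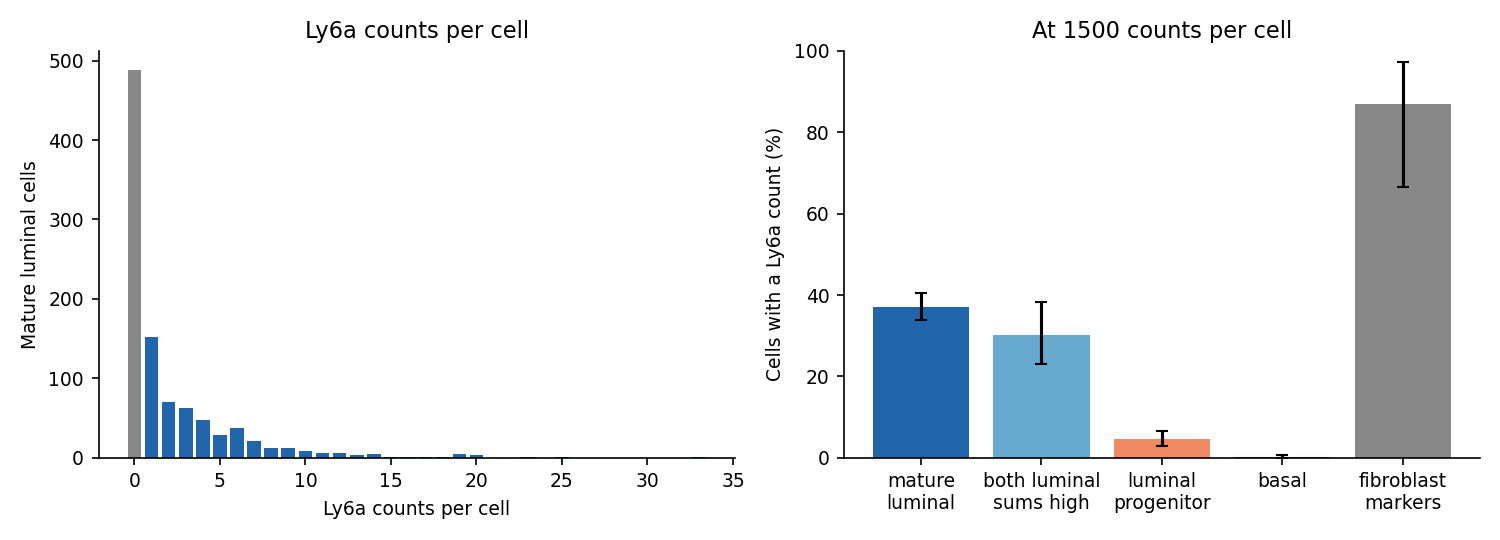
Ly6a counts per ML cell (left; x axis, counts per cell; y axis, number of cells) and percentage of cells with a Ly6a count after thinning to 1500 counts per cell in 5 gates of the same library (right; error bars are exact 95% binomial intervals). On the left, 488 cells stood at 0 and the tail reached 33 counts; on the right, the share was 37.1% in ML cells, 4.6% in LP cells and 0.126% in basal cells, and 87.0% in the 23 cells with fibroblast markers.

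The cells of the gate had the transcripts of ML cells beyond the genes of the rule. Cited1, a co-regulator of hormone-sensing cells, was at 1406 CPM in the gate against 13.4 in LP cells and 5.48 in basal cells, and Areg at 3348 against 31 and 21.1. All 10 immune markers stood at 0 on both sides. Scrublet, a doublet caller, called 32 of the 3302 cells (0.969%) and none of the ML cells. The library had 802 to 12967 counts per cell with a median of 2425.5.

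A small set of cells in the gate had few luminal keratin transcripts. Its 13 cells, picked after the values were seen, had under 10 counts of Krt8, Krt18 and Krt19 together, where the median of the gate was 102. Of these keratin-poor cells, 10 lay on the Ly6a-positive side, with at most 2 counts of Prlr and Stc2 together but 16 to 83 counts of Gpx3, which is what brought them past the rule. All 10 had at least 28 counts of fibroblast markers and together held 574 counts of Dcn, 250 of Pi16, 238 of Col3a1 and 120 of Ly6a. The other 3 lay on the negative side, and 1 of them had 10 or more fibroblast counts. Values are therefore given both for all matched cells and for cells with 10 or more keratin counts, called keratin-containing cells.

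Before any other gene was compared, each Ly6a-positive cell was paired with a Ly6a-negative cell of nearly the same total count. Unmatched, the medians were 3404 counts for Ly6a-positive and 3005.5 for Ly6a-negative cells. Matching kept 355 cells a side with medians of 3222 and 3178, and 350 a side among keratin-containing cells with medians of 3231.5 and 3183.5. Matched cells had medians of 1366 and 1369 detected genes. Ribosomal protein genes took 10.4% and 11.3% of the counts and mitochondrial genes 0.301% and 0.312%.

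The sides were alike for most genes, and the gene that stood furthest apart among those with many counts was Ly6d. Of 3344 genes with 100 or more counts over both sides, 56 (1.67%) were 1.5-fold or more higher in Ly6a-positive cells and 57 (1.7%) were 1.5-fold or more lower, with a median log2 ratio over all genes of -0.01. Among keratin-containing cells the counts were 41 (1.24%) higher and 54 (1.63%) lower of 3306 genes, of which 34 and 51 were past the same fold in all matched cells. Most were genes with few counts: 31 of the 41 and 40 of the 54 had 100 to 199 counts in all. At 50 counts on each side the counting interval of a ratio of 1 runs from 0.662 to 1.51, so a share of these genes can pass 1.5-fold by counting error alone. At 500 counts a side it runs from 0.882 to 1.13. Of the 346 genes with 1000 or more counts, Ly6d alone was past 1.5-fold higher and the tubulin gene Tubb5 alone past 1.5-fold lower in keratin-containing cells.

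**Figure D2:**
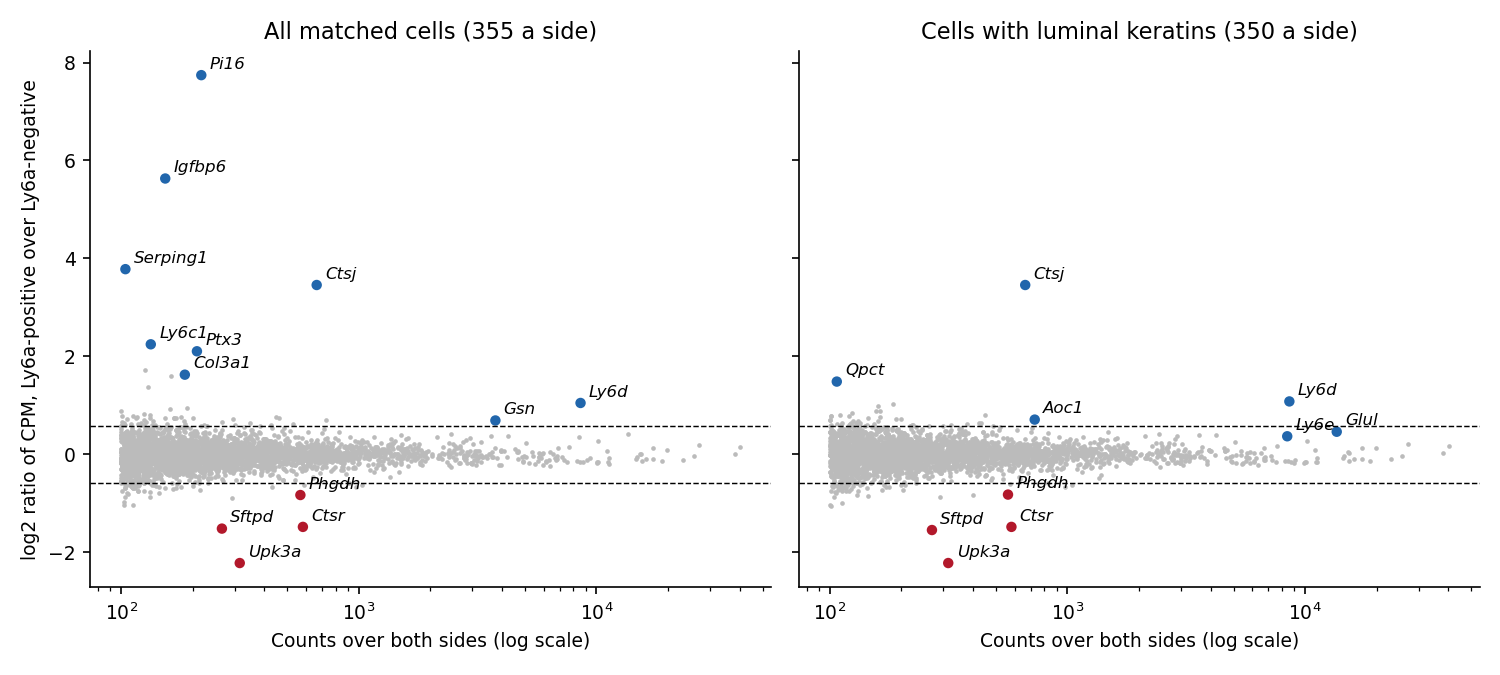
Log2 ratio of CPM in Ly6a-positive over Ly6a-negative cells (y axis) against the counts of each gene over both sides (x axis, log scale) for all matched cells (left, 355 a side) and keratin-containing cells (right, 350 a side); each point is a gene and dashed lines mark 1.5-fold. Ratios spread widest near 100 counts, and the stromal genes Pi16 and Igfbp6 at the top of the left panel have under 100 counts in keratin-containing cells and are not drawn on the right, whereas Ly6d is past the line in both.

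Ly6d, a GPI-anchored Ly6 protein found on ML cells and on lymphoid cells, was higher in Ly6a-positive cells. Its counts in keratin-containing cells were 5840 against 2741, or 4985 against 2360 CPM, a ratio of 2.11 (2.02 to 2.21). A Ly6d count was found in 335 of 350 Ly6a-positive cells (95.7%, 93 to 97.6%) and in 280 of 350 Ly6a-negative cells (75.4 to 84.1%). Per cell, the quartiles were 4.25, 11 and 21.75 counts against 1, 4 and 10. The distributions overlapped widely, with highest cells at 112 and 73 counts. In all matched cells the ratio was 2.07 (1.98 to 2.16), and leaving out keratin-poor cells did not lower it.

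Ly6e, another GPI-anchored family member that many cell types express, differed less. It had 4752 counts against 3653, a ratio of 1.29 (1.24 to 1.35), and nearly every cell held it, 99.4% and 93.4%, with medians of 12 and 9 counts per cell. Ly6c1, a surface antigen of endothelial and immune cells, had few counts, 48 in 31 cells against 23 in 16 cells, a ratio of 2.07 (1.23 to 3.56). In all matched cells Ly6c1 stood at 110 against 23 counts, a difference that includes the keratin-poor cells. Ly6c1 shares a run of bases with Ly6a, and whether this touched its count was not tested.

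Of the 27 members of the Ly6 list, 6 had enough counts in all matched cells, and Ly6d and Ly6c1 were past 1.5-fold higher, where 1.67% of all genes were. Plaur, the receptor of the urokinase protease, was past it the other way, with 77 against 126 counts in keratin-containing cells, 1.65-fold higher in Ly6a-negative cells. Between Ly6d and Ly6a on the chromosome, Ly6k had 55 and 53 counts in all matched cells and 2010109I03Rik 53 and 29, a ratio of 1.81 (1.13 to 2.96) on fewer than 100 counts. Gm17189, which is annotated as antisense and overlaps Ly6k, had 8 and 0. The list median was 0.20 on the log2 scale in all matched cells and 0.04 for the 5 members compared in keratin-containing cells. The 28 genes of the list of GPI anchor synthesis, which make the lipid that these proteins share, had 8 members compared and none past 1.5-fold either way (median log2 ratio -0.13). With 1.67% of all genes past it higher and 1.7% lower, none of 8 is the background share.

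In GRCm38, Ly6a lies on the minus strand at chr15:74994877-74998031 and Ly6c1 on the same strand at chr15:75044018-75048830, a gap of 46.0 kb. Ly6e lies on the plus strand at chr15:74955051-74959905 and Ly6d on the minus strand at chr15:74762056-74763620. The gap between Ly6a and Ly6d was 231 kb.

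Ly6d also differed among Ly6a-positive cells by the number of Ly6a counts. In classes of 0, 1, 2, 3 to 4, 5 to 9 and 10 or more Ly6a counts, set after the values were seen and not matched for depth, keratin-containing cells had Ly6d levels of 2367, 3279, 4278, 4169, 6080 and 7379 CPM. The classes held 485, 152, 70, 111, 107 and 38 cells, and their median depth went from 3010 counts in the first to 4473 in the last. Ly6e went from 3145 CPM in the first class to 4699 in the last. Prlr, a gene of the rule, stayed between 1978 and 2240 CPM over all classes, and Areg was at 3395 CPM in the first and 4275 in the last.

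**Figure D3:**
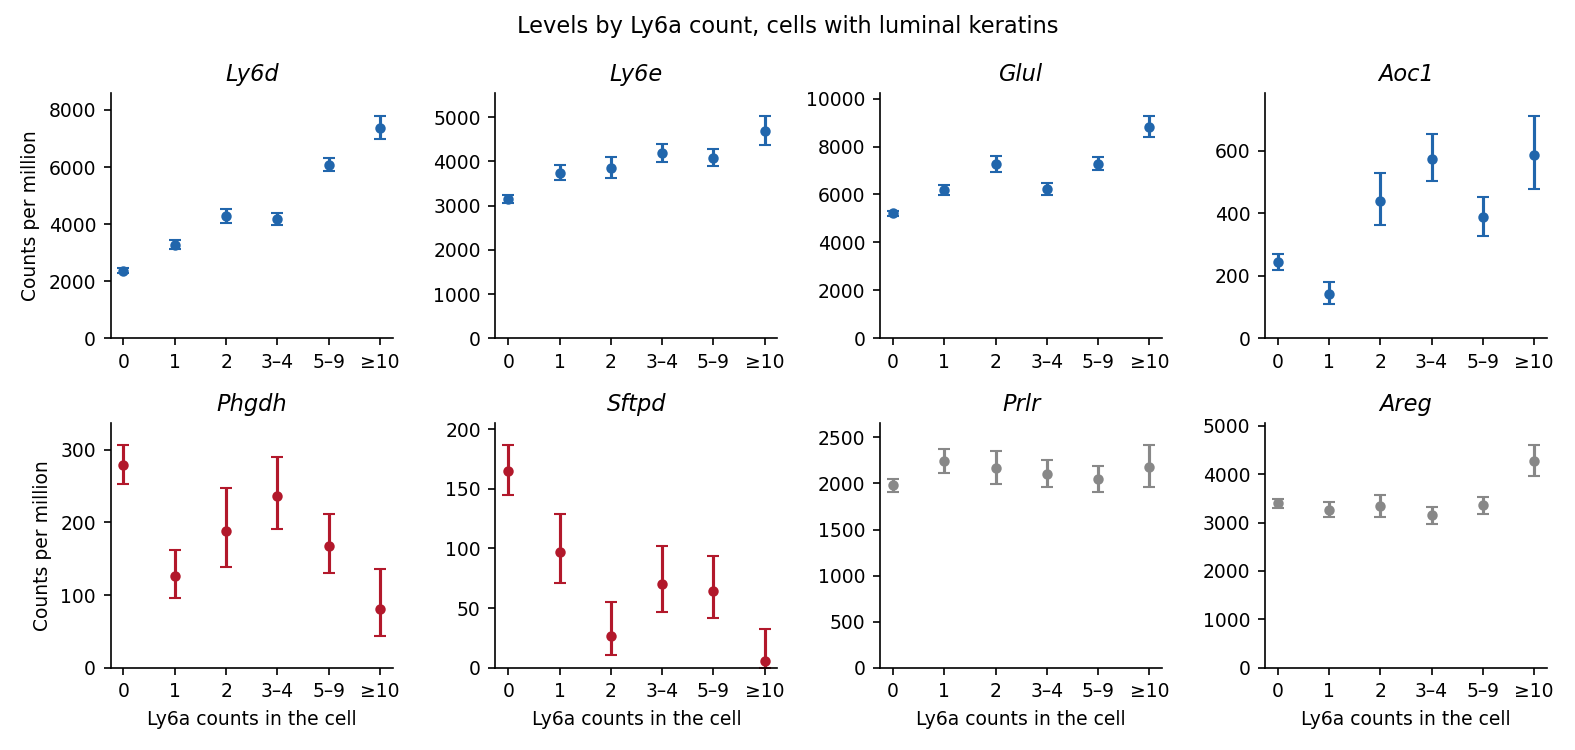
CPM of 8 genes (y axes) in keratin-containing ML cells by the number of Ly6a counts per cell (x axis, 6 classes); bars are exact 95% Poisson intervals of the summed counts. Ly6d goes from 2367 CPM at 0 Ly6a counts to 7379 at 10 or more, Phgdh from 278 to 81.2, and Prlr stays between 1978 and 2240.

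Other surface and metabolic genes were also higher in Ly6a-positive cells. Among the 12 highest ratios in all matched cells, Qpct, the glutaminyl cyclase that forms N-terminal pyroglutamate, had 79 counts in 34 keratin-containing cells against 28 counts in 19 cells, a ratio of 2.80 (1.80 to 4.47). Tiparp, a mono-ADP-ribosyltransferase induced by the aryl hydrocarbon receptor, had 124 counts in 72 cells against 60 in 49 cells, a ratio of 2.05 (1.49 to 2.84). Both genes have few counts, and their intervals are accordingly wide.

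Prom1 (CD133), a surface protein used beside Sca-1 to sort ML cells, had 260 against 165 counts, a ratio of 1.56 (1.28 to 1.91), and was found in 36.9% and 30.9% of cells. It was the only member of the list of luminal sorting markers, of 6 compared, past 1.5-fold. Cd24a, which encodes the CD24 protein used to sort these cells, had 2048 against 1537 counts, a ratio of 1.32 (1.24 to 1.41), with medians of 4 and 3 counts per cell. The list median was -0.02 in all matched cells and -0.003 in keratin-containing cells.

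The following genes were named after their values were seen. They are some of the genes with the highest ratios among those with 300 or more or 1000 or more counts in keratin-containing cells. Others with ratios as high, Clca3a2 among them, are not given. Aoc1, the diamine oxidase that breaks down histamine, had 453 counts in 79 cells against 275 in 54 cells, a ratio of 1.63 (1.40 to 1.90). By Ly6a class Aoc1 was at 244, 143, 440, 575, 386 and 586 CPM, without a steady order. The transcript AW112010 had 285 against 163 counts, a ratio of 1.73 (1.43 to 2.11). By Ly6a class AW112010 was at 150, 207, 214, 187, 244 and 389 CPM. Glul, the enzyme that makes glutamine from glutamate, had 7889 against 5688 counts, a ratio of 1.38 (1.33 to 1.42), with medians of 13 and 7 counts per cell. The ratio was 1.34 for Nupr1, a stress-induced chromatin protein, and 1.32 for Tsc22d1, a transcriptional regulator, with 1000 or more counts each. It was 1.55 for the extracellular matrix gene Ecm1 and 1.53 for the calcineurin regulator Rcan1, each with under 500 counts. Of 16 settings, Rcan1 was past 1.5-fold in 8, Aoc1 in 12, and AW112010 and Ecm1 in 14 each.

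In the opposite direction, Phgdh, which catalyses the first step of serine synthesis, was lower in Ly6a-positive cells. It had 204 counts in keratin-containing Ly6a-positive and 358 in Ly6a-negative cells, 1.77-fold (1.49 to 2.11) higher in the latter, and was found in 30.3% and 46.9% of cells. By Ly6a class, Phgdh was at 278, 126, 188, 237, 167 and 81.2 CPM, highest in the cells without Ly6a and without a steady order among the others. Across the library, Phgdh was at 217 CPM in ML cells, 7.75 in LP cells and 70.0 in basal cells.

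Sftpd, which encodes surfactant protein D, a secreted lectin of innate defence, had 69 counts in 21 keratin-containing Ly6a-positive cells and 200 in 52 Ly6a-negative cells. It was 2.92-fold (2.21 to 3.90) higher in Ly6a-negative cells. By Ly6a class it was at 165, 97.1, 26.8, 70.6, 64.0 and 5.80 CPM. Phgdh was found in 61.6% of the 99 keratin-containing ML cells with Sftpd and in 34.3% of the 864 without, at median depths of 4103 and 3109 counts and at 434 and 187 CPM.

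Upk3a, a uroplakin of the urothelial membrane, had the lowest ratio of all genes compared but rested on few cells. It had 56 counts in 26 Ly6a-positive cells and 259 in 35 Ly6a-negative cells, of which a single cell held 101. It was 4.66-fold (3.48 to 6.34) higher in Ly6a-negative cells and 3.62-fold with the highest cell of each side left out. By Ly6a class Upk3a was at 203, 149, 23, 40.3, 382 and 34.8 CPM, without order, and its log2 ratio ran from -2.35 to -0.44 over the processing alternatives.

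Plac8, a cysteine-rich gene of the ML signature, had 145 counts in 91 keratin-containing Ly6a-positive cells and 257 in 104 Ly6a-negative cells, 1.79-fold (1.45 to 2.21) higher in the latter. Tubb5, a beta-tubulin, had 410 against 631 counts, 1.55-fold (1.37 to 1.76) higher in Ly6a-negative cells. Cyr61, a matrix-associated signalling protein, and Ppp1r15a, a subunit that restores translation after stress, were 1.51-fold and 1.53-fold higher in Ly6a-negative cells and were, like Tubb5, named after their values were seen. Both depended on the cells taken: with a Prlr, Stc2 and Gpx3 sum of 20 or more their log2 ratios were -0.03 and -0.29, with Ly6a at 2 or more counts that of Cyr61 was -0.08, and they were past 1.5-fold in 8 and 9 of 16 settings. Tubb5 and Plac8 were past it in 11 each. The other genes among the 12 lowest ratios, Aggf1, Rnf146, Ccser2, 1600014C10Rik, Cd1d1, C1galt1c1, Pttg1 and Frrs1, had 34 to 103 counts in all matched Ly6a-positive cells and were 1.73-fold to 2.05-fold higher in Ly6a-negative cells.

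Ctsj and Ctsr, cathepsins best known from the placenta, were each carried by 1 cell. A single Ly6a-positive cell held 592 of the 609 Ctsj counts of its side, and a single Ly6a-negative cell held 316 of the 427 Ctsr counts. Without the highest cell of each side the Ctsj ratio in all matched cells went from 11 to 0.581, and Ctsr, 2.80-fold higher in Ly6a-negative cells, went to 1.08-fold.

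The genes with the highest ratios in all matched cells were stromal and came with the keratin-poor cells. Pi16, a marker of fibroblasts, had 216 counts in 7 Ly6a-positive cells and 1 count on the other side, and in keratin-containing cells 1 count on each side. Igfbp6, an insulin-like growth factor binding protein, had 150 counts against 3, and 0 against 1 in keratin-containing cells. Serping1 had 97 against 7, Ptx3 169 against 39 and Col3a1 140 against 45. In keratin-containing cells these 3 had 0 against 3, 4 against 0 and 1 against 3. Ugdh, with 122 against 40 counts, stood at 37 against 38 in keratin-containing cells, and Timp2 at 94 against 36 stood at 48 against 35. The actin-severing protein gelsolin, Gsn, was past 1.5-fold in all matched cells (2325 against 1429 counts, a ratio of 1.61) and at 1.16 in keratin-containing cells.

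The fibroblast list as a whole moved with the split in the same way. Its 11 members summed to 2101 CPM against 1355 in all matched cells and to 1261 against 1265 in keratin-containing cells. In the latter, nearly all of it was Dcn, with 1471 counts in 123 cells against 1458 in 112. The members other than Dcn came to 6 counts against 11, and 6 and 7 of these 10 members were at 0. Endothelial markers had 34 and 26 counts in keratin-containing cells, pericyte markers 28 and 28, red cell markers 28 and 21, Schwann cell markers 20 and 13 and basal markers outside the rule 105 and 98, and no member of these lists or of the immune list reached 100 counts. LP markers outside the rule had 1248 against 1077 counts, and the highest cell of each side held 88 and 13 of them. Of these markers 5 were compared, with none past 1.5-fold and a median log2 ratio of 0.22 in all matched cells.

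Of 9 hormone receptors and luminal transcription factors compared, none was past 1.5-fold (median log2 ratio -0.14), which is the background share with 1.67% of all genes past it higher and 1.7% lower. Their log2 ratios ran from -0.49 to 0.12, and Cited1 had 1652 and 1580 counts in keratin-containing cells. The receptors had few counts. Esr1, the oestrogen receptor, had 49 counts in 38 cells against 25 in 22 cells, a ratio of 1.94 (1.18 to 3.28) on fewer than 100 counts. By Ly6a class, in keratin-containing cells not matched for depth, Esr1 was at 24.2, 43.4, 30.6, 32.8, 19.7 and 40.6 CPM, without a steady order. Pgr, the progesterone receptor, had 72 and 83 counts, and Foxa1, a factor that opens chromatin for oestrogen receptor, 72 and 86. The 5 paracrine effectors compared had log2 ratios from -0.17 to 0.32 (median 0.12). Areg had 3580 and 3937 counts, 1.11-fold higher in Ly6a-negative cells, and Ptn (pleiotrophin) 21397 and 18813, a ratio of 1.13. Split instead by Areg at its median of 5 counts, 49.0% of the 463 cells above it and 50.9% of the 513 others had Ly6a. These classes were not matched for depth: their medians were 3772 and 2760 counts, and Ly6a stood at 561 CPM in the first and 688 in the second.

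Of the 28 genes of the ML signature, 23 were compared, with Ly6d past 1.5-fold higher and Upk3a and Plac8 past it lower (median 0.06), beside 1.67% higher and 1.7% lower of all genes. Krt19, a luminal keratin, had 14586 and 12443 counts in keratin-containing cells, a ratio of 1.16. The 10 keratin and junction genes had log2 ratios from -0.22 to 0.23 (median 0.01). Of the genes of the rule, given as a description, Prlr had 2546 and 2308 counts, Stc2 3921 and 4182 and Gpx3 14160 and 14483.

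Ly6a is induced by interferons in several cell types, and the lists of that pathway were read beside it. Counts of members past 1.5-fold are read beside 1.67% of all genes higher and 1.7% lower, so that none or 1 of a list of this size is the background share. The 8 interferon receptors, kinases and transcription factors compared had log2 ratios from -0.22 to 0.30 and none past 1.5-fold (median 0.00). Of 12 interferon-stimulated genes compared, Lgals3bp, a secreted galectin-binding protein, was past it, with 76 against 44 counts and a ratio of 1.71 (1.17 to 2.54) in keratin-containing cells. The median of these genes was 0.05 in all matched cells and 0.02 in keratin-containing cells. The lists do not hold every gene of the pathway, and they leave out AW112010, given above, and Gm4951. The log2 ratio of Gm4951 was 0.63 in all matched cells, and it was past 1.5-fold in 7 of 16 settings. None of 16 genes of MHC class I presentation was past it, with log2 ratios from -0.24 to 0.25 (median 0.13). In all matched cells H2-D1 had 9075 and 8242 counts, B2m, the shared light chain, 1556 and 1564, and Psmb8, an immunoproteasome subunit, 1196 and 1063. Of the 7 class II genes only H2-DMb1 was compared, and it was not past 1.5-fold.

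The stress and growth factor lists are read beside the same shares of all genes, 1.67% higher and 1.7% lower, and with none or 1 gene past 1.5-fold each way in all matched cells they stand at the background. None of 18 immediate-early genes was past it (median -0.07), nor any of 12 annexin and S100 genes (median 0.04) or the 2 cell cycle genes with enough counts. Of 7 NF-kB genes, Cxcl1 was past it higher and Nfkb2 past it lower in all matched cells (median 0.25). In keratin-containing cells Cxcl1 had 102 counts against 55, with 32 in 1 cell, and a ratio of 1.84 that was 1.48 without the highest cells. Nfkb2 had 43 and 59 counts there and was not past 1.5-fold. Of 7 TGF-beta and BMP genes, Tgfb3, a ligand, had 42 against 68 counts in keratin-containing cells and Smad7, an inhibitor of the receptor, 42 against 64, 1.63-fold and 1.54-fold higher in Ly6a-negative cells. Smad7 was not past 1.5-fold in all matched cells, where the list median was -0.22. Of 13 redox genes Gstm1 alone was past it in all matched cells, with 113 against 70 counts, and it stood at 68 and 66 in keratin-containing cells. The 82 ribosomal protein genes and the 6 mitochondrial genes compared had none past 1.5-fold, and the ribosomal median was -0.11.

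**Figure D4:**
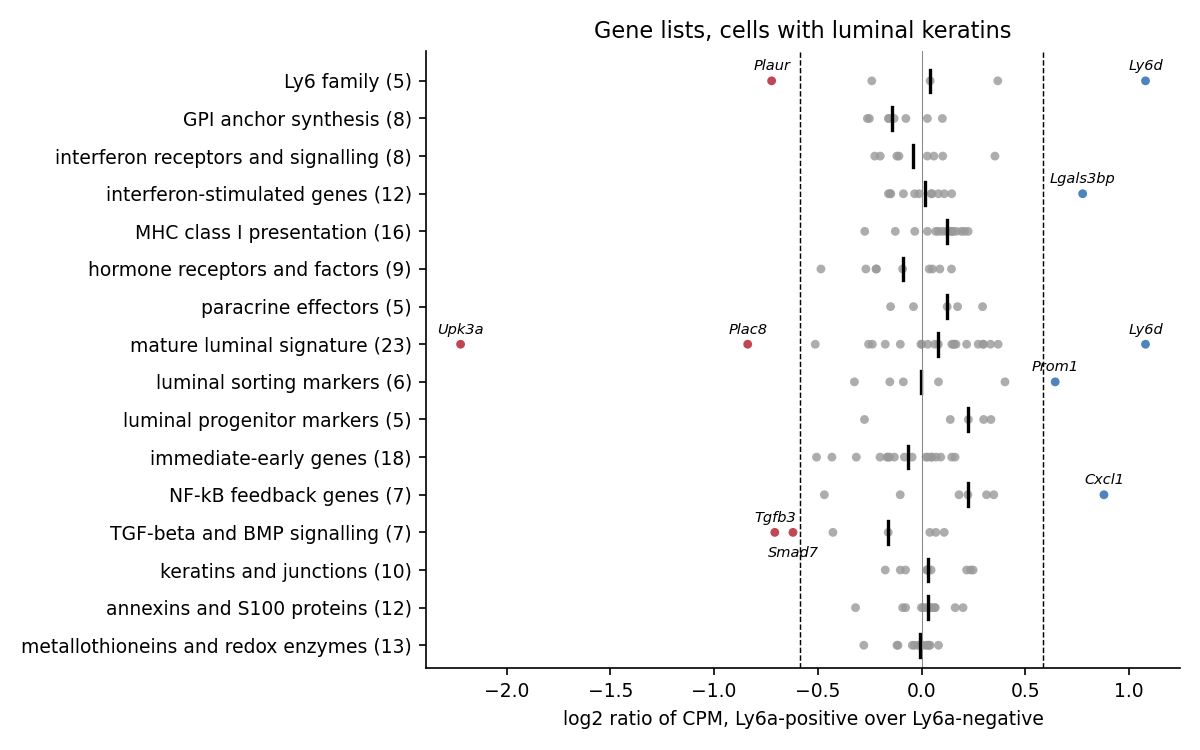
Log2 ratio of CPM in Ly6a-positive over Ly6a-negative keratin-containing cells (x axis) for the compared members of each gene list with 5 or more of them (rows); each point is a gene, the black line is the list median and dashed lines mark 1.5-fold. The medians lie near 0, and Ly6d and Upk3a are the members furthest from it.

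The same genes were read in cells that the rule had left out because their LP sum was also high, a comparison added after the values were seen. Their median depth was 5406 counts, against 3196.5 in ML cells and 2603 in LP cells. Prlr stood at 1286 CPM, between 2048 in ML and 74.9 in LP cells, and Trf at 19232, between 126 and 48549.5. Droplets that held an ML and an LP cell together could also meet this gate, and their share was not tested. These 155 cells of the same library were not matched: 84 with Ly6a had a median of 5912.5 counts and 71 without had 4668. Ly6d had 1953 against 1073 CPM, a ratio of 1.82 (1.61 to 2.06), and Ly6e a ratio of 1.21 (1.12 to 1.31). Glul had a ratio of 1.94 (1.77 to 2.12), Aoc1 of 2.16 (1.42 to 3.37) and Prom1 of 2.02 (1.11 to 3.91), all in the same direction as in ML cells. Phgdh was 1.73-fold (1.16 to 2.60) higher in the cells without Ly6a. Sftpd, with 42 and 29 counts, was at 83.9 and 85.9 CPM and did not show the difference seen in ML cells.

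In LP cells, 44 with Ly6a had a median of 3547.5 counts and 613 without had 2572. Ly6d had 37 against 298 counts there, 220 against 169 CPM, a ratio of 1.30 (0.901 to 1.84) whose interval includes 1. Ly6e stood at 2937 and 2806 CPM. Glul was 1.48-fold (1.2 to 1.84) higher in the LP cells without Ly6a, the reverse of its direction in ML cells. Aoc1, Prom1 and Sftpd had at most 10 counts on either side.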

How the data were processed

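The authors processed the reads of each library with Cell Ranger and deposited whole-number counts of unique molecules per gene and cell, without normalization. The submitters' processing notes name Cell Ranger 1.2.1 and the genome build mm10. The study's methods name a later release, and its results give a slightly larger number of total epithelial cells. Counting of this kind leaves out reads that match several genes, which lowers the counts of near-identical genes. The deposited table held 3302 cells, the number in the labels, and the methods give no threshold on coverage for this platform, so all cells were used. The libraries shared 28 cell barcodes.

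Symbols were taken from the deposited gene table of 27998 genes, of which 27722 matched a position in GENCODE vM21 by identifier. Cells were paired 1:1 by the natural log of the total count without Ly6a, and pairs further apart than 0.05 were dropped, which left out 133 cells a side. Counts were summed per side and scaled to the side's total without Ly6a. Genes with 100 or more counts over both sides were compared at 1.5-fold. Medians and ranges of log2 ratios of the gene lists are those of all matched cells unless the text says otherwise. Counts have exact Poisson intervals, shares exact binomial (Clopper-Pearson) intervals, and ratios exact conditional binomial intervals, at 95%. At the median depth of a Ly6a-negative cell, 3 counts are 0.0998% of its counts. The likelihood ratio tests of the study take cells as units and were not used, since 1 library gives no replicate.

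Named genes were those with the 12 highest and 12 lowest ratios, each list member past 1.5-fold and the 4 members of each list with most counts, with the genes of the rule as a description. The members, the 25 lists and the alternatives were chosen with earlier results of these data known. Some genes counted in the totals are not reported here by name. Of the list members, Pigy and Mx2 are not in the gene table. LP cells, basal cells and cells with both luminal sums high were picked with the same 9 genes. Alternatives covered the matching, the Ly6a cutoff, the scaling, the filters and the cells. The counting step was tested on simulated side totals with Poisson error only, without extra spread between cells. The pairing was checked on the real cells. Python 3.11.15, numpy 2.4.6, scipy 1.17.1, pandas 2.3.3, scanpy 1.11.5 (Scrublet, 30 components) and matplotlib 3.10.9 were used, and under R 4.3.3 edgeR 4.0.16 (TMM) and DESeq2 1.42.0 (size factors) gave alternative scaling factors only.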

Additional observations from a re-analysis of the deposited data

How the results depend on the processing

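No paired analysis was possible because the comparison was made within 1 library and no replicate number ties cells of the sides together. The 1:1 pairs by total count served only to balance depth, and ratios were taken from the summed counts of each side. The 56 genes higher and 57 lower became 32 and 24 with every cell thinned to 1500 counts, 32 and 30 without cells that held any stromal, immune or other marker (184 pairs and 1887 genes), 200 and 192 with a minimum of 50 counts, 16 and 14 with 200, 2617 and 2234 with no minimum and 0.5 counts added, 294 and 300 at a fold of 5 to 4 and 11 and 5 at 2-fold. Under the other alternatives there were 41 to 74 higher and 48 to 70 lower. The share of cells with Ly6a was 37.1% at 1500 counts per cell, 31.7% at 1000 and 34.4% for 2 or more counts. Of single genes, the log2 ratio of Ctsj turned to -0.47 with a Prlr, Stc2 and Gpx3 sum of 20 or more, -3.41 without marker-containing cells and -0.78 without its highest cells, also among keratin-containing cells. In keratin-containing cells Pi16 turned to -0.012, Col3a1 to -1.60 and Ugdh to -0.051, and Ugdh to -0.10 without its highest cells there and -0.43 without marker-containing cells. Pttg1 turned to 0.11 without marker-containing cells. Apart from what their construction shows (fewer cells or genes), the cause was not tested. Ly6d (log2 ratio 0.96 to 1.11), Ly6c1, Qpct, Tiparp, Sftpd, Phgdh (-0.91 to -0.76), Rnf146, 1600014C10Rik and Cd1d1 were past 1.5-fold in all 16 settings in which single genes were recomputed, and Prom1 in 9. Some of these settings left a gene under 100 counts. Ly6c1 had 71 counts and a log2 ratio of 1.05 in keratin-containing cells. Without marker-containing cells Ly6c1 had 19 counts and a log2 ratio of 0.76, Rnf146 had 49 counts and Qpct 60. No scaling moved the median of all genes by over 0.1. The alternatives without keratin-poor cells or highest cells were chosen after seeing the data. With 1 library, no value covers differences between mice, and at 100 counts a 1.5-fold ratio lies near the counting error.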
